A study of Rattus norvegicus with 40 samples.

Results

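The comparison described here set carotid arteries of sham-operated rats, collected 1 day after the operation (labelled Carotid-Sham-1day, 4 arrays), against carotid arteries of rats that had no operation (Carotid-Intact, 6 arrays). The 10 arrays were chosen by these titles, out of 40 arrays in 11 groups. All animals were male Wistar-Kyoto rats aged 3 months, and both groups contributed left common carotids, with the vessels of 3 rats pooled for each array. RNA was hybridised to the Affymetrix U34A rat array, on which each probe set gives 1 intensity. Some genes have more than 1 probe set, and some probe sets are listed under several genes. All 40 arrays entered the fit and set its estimate of the spread. Groups whose values are given beside the results were sham arteries collected on day 4 (6 arrays) and, on day 1, the balloon-injured left artery covered with plain pluronic gel and the uninjured right artery of such gel-treated rats (3 arrays each). In the other groups the gel carried tissue-type plasminogen activator, or the artery was collected on day 4. The labels state neither what the sham operation consisted of nor the hour of the day at which arteries were taken.

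A sham operation exposes the animal to anaesthesia and surgical handling without the injury under study, so a sham-operated artery separates these from the balloon injury itself. An artery holds smooth muscle, endothelium and an outer adventitia with nerves, fat and resident immune cells, and each of these runs a circadian clock. In that clock, Bmal1 pairs with Clock to switch on genes such as Nr1d1, Nr1d2, Per2 and Dbp, the Nr1d1 and Nr1d2 proteins repress Bmal1, and the transcript levels rise and fall over the day.

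The labelled tissue was borne out by smooth muscle genes: Acta2 (smooth muscle actin) had a mean log2 intensity of 12.69 in sham and 12.76 in intact arrays, and Myh11 (smooth muscle myosin) one of 12.37 and 12.56. Median intensities were 104.9, 103.8, 109.3 and 131.2 in sham arrays 1 to 4 and 114.4 to 132.6 in intact arrays (exact permutation test, two-sided, p = 0.11). The 4 sham arrays fell into 2 pairs. Arrays 1 and 2 differed by a standard deviation of 0.488 log2 units over probe sets and arrays 3 and 4 by 0.533, which ranked 2 and 3 of the 60 pairs of arrays within groups (median 0.84). Across these pairs the value was 0.737 to 0.792, and among the intact arrays 0.607 to 0.918. The labels give the 4 arrays as separate samples and none of them repeat another's values, so each counted as 1 sample. Calls of named genes that were lost with each close pair averaged are given beside the results, and since no label says more about how the pools were made, the p-values measure the spread between arrays. The 3′ to 5′ signal ratio of the actin control probe sets, a sign of RNA or labelling quality, was 16.26 to 21.11 in sham and 10.68 to 17.58 in intact arrays (exact permutation test, two-sided, p = 0.019, 0.0952 adjusted over 5 quality measures, where the smallest p that 210 splits allow is 0.00476). The part of this difference in the results below was not tested.

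The day after a sham operation, few transcripts passed against the intact artery in the fit to all 40 arrays. Of 5827 probe sets tested, 50 (0.858%) passed the threshold of an adjusted p under 0.05 (limma with Benjamini-Hochberg adjustment), 20 of them higher (0.343%) and 30 lower (0.515%) in sham. Before adjustment 628 (10.8%) had a p under 0.05. The 50 comprised 26 probe sets that name 1 gene (23 genes), 8 listed under several genes and 16 without a gene name. The sham and intact arrays did not overlap for 49 of the 50, against 322 of all probe sets tested (5.53%, with sham higher in 2.56% and lower in 2.97%). Since the 50 were called on the same values, this lack of overlap is no separate support for them. Taking the brightest probe set of each gene, 17 of 3536 genes passed (0.481%), 6 higher (0.17%) and 11 lower (0.311%). The median difference over all genes was -0.08 log2 units, and 42.5% of genes lay above 0. The count was larger in some other fits, at 106 with only the groups compared and 128 with only sham and intact arrays. It was 87 without 4 tPA arrays that stand apart and 320 with array weights. With the close pairs averaged 25 probe sets passed, 12 higher and 13 lower. Without sham arrays 3 and 4 together 17 passed, and without arrays 1 and 2 together 47, alternatives chosen after seeing the data. The balance of directions moved with scaling. As deposited, 40% of calls were higher; 54.5% were after quantile normalisation and 57.1% when arrays were scaled to a common median, which shifted the median over all probe sets from -0.09 to 0.05.

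**Figure D1:**
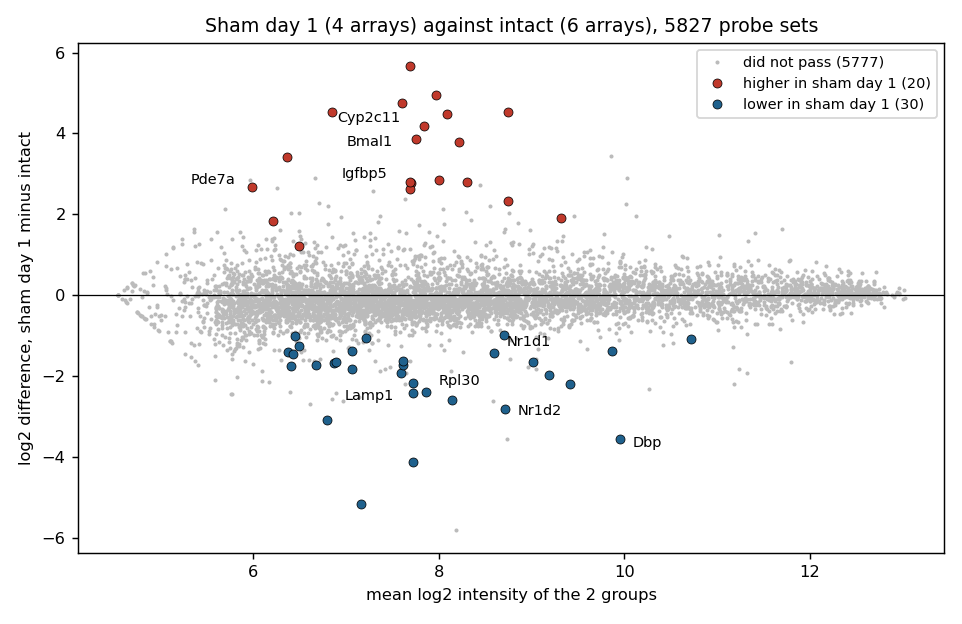
Each point is 1 of the 5827 probe sets tested, with its mean log2 intensity over the sham day 1 and intact arrays on the x axis and the log2 difference (sham day 1 minus intact) on the y axis. Coloured points passed the test; most points lie near 0, and Cyp2c11 (4.19), Bmal1 (3.86) and Dbp (-3.56) lie far from it.

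The clearest named group was the circadian clock. Of 9 tested members of a clock list, Bmal1 was higher in sham arteries and Dbp, Nr1d2 and Nr1d1 were lower, while 5 did not pass, against 0.17% and 0.311% of all genes in these directions. The median difference over the list was -0.54, and 1 member of 9 lay above 0. Summed over the list, intensity was 3067 to 4631 in sham arrays and 7510 to 10193 in intact arrays.

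Bmal1, the activating transcription factor of the clock, measured 657, 896, 1104.5 and 697 in sham arrays 1 to 4. In intact arteries its lowest, median and highest intensities were 25.5, 62.7 and 110.4. Every sham array lay above every intact one. The difference was 3.86 ± 0.40 log2 units (SE, limma adjusted p = 2.12e-07), or 14.5-fold with a 95% interval of 8.26 to 25.4. A second probe set for Bmal1 gave 3.41 (adjusted p = 2.2e-06), with 5 of 6 intact arrays at the floor of 23.3 intensity units below which values were set equal, so that its size depends on the floor (1.76 with the floor at the 40th in place of the 20th percentile). The call held in all 26 settings tried, with adjusted p-values from 3.37e-10 to 0.0141.

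In sham arteries of day 4 and in right gel arteries of day 1, Bmal1 was lower than in sham arteries of day 1. Against sham day 1, the limma test over all probe sets passed 4.84% in sham day 4, 0.892% in right gel and 3.42% in injured left arteries of day 1. The 6 sham arrays of day 4 had 99.9, 110.0 and 182 as lowest, median and highest intensities, and the day 1 minus day 4 difference was 2.71 (adjusted p = 0.000106). On day 1 the right artery of gel-treated rats measured 157, 208 and 233, lower than sham (right minus sham -2.06 log2 units, adjusted p = 0.0223). The injured left artery measured 322, 289 and 352, with a left minus sham difference of -1.36 that did not pass (adjusted p = 0.109). Every array of both gel groups lay below the lowest sham array of day 1 and above the highest intact array. Comparisons of other groups with sham day 1, here and below, share the 4 arrays whose values chose the genes named. They describe where the other groups lie and are no separate support.

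Clock output and repressor genes moved the other way. Dbp, a transcription factor of the PAR bZIP family that the clock drives directly, measured 301, 247, 308 and 302 in sham arrays, against 2409.5, 3601 and 4419 as the lowest, median and highest intact values. The difference was -3.56 ± 0.49 (adjusted p = 2.02e-05), which is 11.8-fold lower with an interval of 5.94 to 23.3, and a second probe set gave -4.11 (adjusted p = 6.67e-06). Here the groups lay far apart and the sham arrays close together. On day 4 the sham arteries had Dbp at 1365 to 3417, and the day 1 minus day 4 difference was -2.84 (adjusted p = 0.000868). The right gel arteries of day 1 measured 595, 953 and 325 and the injured left ones 503, 140 and 449, neither different from sham in the test (adjusted p = 0.498 and 0.963).

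Nr1d2, the nuclear receptor also called Rev-erb beta, measured 108, 194, 179 and 164 in sham arrays and 490.5, 1232 and 1689 as lowest, median and highest in intact arrays. The difference was -2.82 ± 0.51 (limma adjusted p = 0.00107), 7.07-fold lower with an interval of 3.44 to 14.5. The groups did not overlap, and the call held in all 26 settings. The related receptor Nr1d1 (Rev-erb alpha) measured 261, 224, 189 and 289 in sham and 495, 611 and 893 in intact arrays, again without overlap. A second Nr1d1 probe set gave -1.93 and did not pass (adjusted p = 0.051). At the brightest probe set the difference of -1.42 ± 0.34 (adjusted p = 0.0303) was less firm than that of Nr1d2. It missed the threshold when any 1 of the 4 sham arrays or intact array 1, 2 or 4 was left out (adjusted p from 0.0544 to 0.151), with the close pairs averaged (0.406) and under quantile normalisation (0.0849) or median scaling (0.0716). Both were also lower than in sham arteries of day 4 (day 1 minus day 4 -1.98 for Nr1d2, adjusted p = 0.0251, and -1.94 for Nr1d1, 0.00142). The Nr1d2 difference between days missed the threshold without sham day 1 array 1, 2 or 3 or day 4 array 1 (0.0538 to 0.0741).

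Averaging the close pairs left Bmal1 (adjusted p = 0.000106), Dbp (0.00355) and Nr1d2 (0.0428) past the threshold against intact arteries. Between day 1 and day 4 only Bmal1 of these 4 genes passed in that setting, with Dbp at 0.0503, Nr1d1 at 0.0607 and Nr1d2 at 0.26. The 5 clock genes that did not pass were Per2 (a repressor of the clock), Bhlhe40 and Bhlhe41 (repressors that compete for the same sites) and Tef and Hlf (relatives of Dbp), with differences of -0.74, -0.44, -0.54, -0.45 and -0.22. For Per2 the sham arrays measured 443, 493, 375 and 335 and the intact arrays 454 to 829, so the groups overlapped (adjusted p = 0.42). Tef differed between the sham days (day 1 minus day 4 -0.70, adjusted p = 0.0429), which brought the count against day 4 to 1 higher and 4 lower of 9. Over all genes 4.44% passed in that comparison, 1.95% higher and 2.49% lower. The hour of collection was not given for any group and its part in these differences was not tested.

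**Figure D2:**
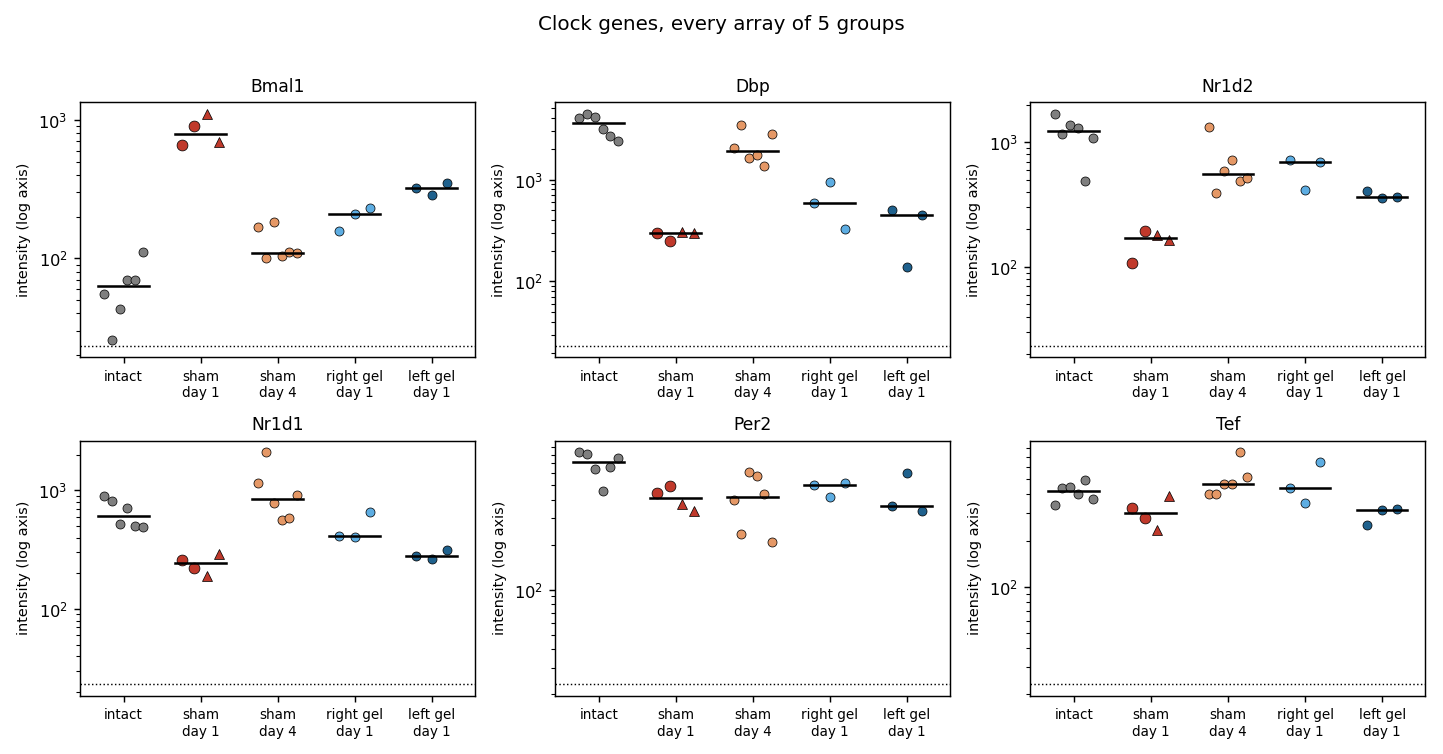
Intensities (log axis) of the clock genes in sham day 1, intact, sham day 4 and both day 1 gel groups. Each point is 1 array, triangles are sham day 1 arrays 3 and 4, the black bar is the group median and the dotted line the floor of 23.3. Bmal1 in sham day 1 lies above every other group shown, while Dbp, Nr1d2 and Nr1d1 lie below intact.

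The clock is known to act through short promoter sequences, and 2 windows of 250 bases before the gene start are shown because they hold such letters, for the gene that rose and for one that fell. Sequences are RefSeq entries on the rat build GRCr8. Of the 9 clock genes tested, 8 had a promoter entry, in 9 windows. Bmal1 is at chr1:176766078-176766327 on the plus strand, with capitals marking the motif known as the RORE, to which the Nr1d and Ror receptors bind (searched as AA, any base, TAGGT, any base and A). Nr1d1 is shown in the second of its entries, at chr10:84229455-84229704 on the minus strand, with capitals marking CACGTG, the E-box to which Bmal1 binds with Clock.

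Bmal1: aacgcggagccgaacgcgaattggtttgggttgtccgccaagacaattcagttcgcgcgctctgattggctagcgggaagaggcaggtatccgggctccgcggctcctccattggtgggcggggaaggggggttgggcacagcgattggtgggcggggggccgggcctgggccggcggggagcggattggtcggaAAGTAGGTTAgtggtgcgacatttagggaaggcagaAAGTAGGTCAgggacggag
Nr1d1: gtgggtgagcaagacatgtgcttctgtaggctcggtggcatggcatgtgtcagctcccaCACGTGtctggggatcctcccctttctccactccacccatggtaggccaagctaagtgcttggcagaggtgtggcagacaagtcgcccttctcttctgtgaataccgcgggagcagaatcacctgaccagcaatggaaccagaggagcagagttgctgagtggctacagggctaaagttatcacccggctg

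The Bmal1 window held the RORE at 2 places, AAGTAGGTTA starting 55 bases before the gene start and AAGTAGGTCA starting 19 before it. Both strands were searched. This motif occurred in 214 of 33469 promoter windows of the same length (0.639%), and in none of the other clock windows. With C as the free base before the last A, as in the second of these, it occurred in 69 windows (0.206%). CACGTG lay 191 bases before the start in the Nr1d1 entry shown, and also in the windows of Bhlhe40, Bhlhe41 and Tef, against 1872 of all windows (5.59%). The related CACGTT was found in the other Nr1d1 entry and in Per2 (1362 windows, 4.07%), and TTATGTAA, the site of Dbp, Tef and Hlf, in Per2 alone among the clock windows (277 windows, 0.828%). The Dbp and Nr1d2 windows held none of these letters.

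Immunoglobulin probe sets formed the largest group of rises. The array carries 13 probe sets annotated under immunoglobulin genes alone. Of the 9 that were tested, 7 were higher in sham arteries, without overlap between the groups, and none was lower (by limma, with 2 not past an unadjusted p of 0.05 either). Over all probe sets 0.343% were called higher and 2.56% did not overlap with sham higher. All 7 are listed under more than one immunoglobulin kappa variable gene, so none can be assigned to a single gene, and they were singled out after their values were seen. How far they read the same transcripts was not tested, so they cannot be taken as 7 separate observations. The probe set M18526cds_f_at measured 323, 465, 2594 and 2702 in sham arrays 1 to 4, with 16.1, 39.9 and 64.7 as lowest, median and highest intact values. Its difference was 4.76 ± 0.78 log2 units (adjusted p = 0.000398), 27-fold with an interval of 9.01 to 81.1. Sham arrays 3 and 4 were several-fold brighter than arrays 1 and 2, and the same held for M18529cds_f_at (412, 449, 4003 and 3644, difference 4.48). The other 5 differed by 2.32 to 3.80. Without sham arrays 3 and 4 together none of the 7 passed (adjusted p from 0.119 for M18527cds_f_at to 0.361 for M18530cds_f_at), and M18526cds_f_at differed by 3.37 (0.146). With the close pairs averaged, 6 of the 7 passed and M18530cds_f_at did not (0.0568). The single-gene probe sets Ighvl1 and Igll1 (a surrogate light chain) gave -0.03 and -0.26 and did not pass.

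Kappa signal was also present in sham arteries of day 4. M18526cds_f_at ranged from 66.6 to 776 there, and the day 1 minus day 4 difference of 2.23 did not pass (adjusted p = 0.0846). In right gel arteries of day 1 it measured 23.4, 55.1 and 186, lower than in sham of the same day (-4.03, adjusted p = 0.0223). This comparison reuses the sham arrays by which the probe set was chosen and is a description. Antibody chains are made by plasma cells and B cells. In RNA from whole vessels, more cells of a type and more RNA per cell cannot be told apart.

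Markers of T cells and of antigen presentation were read beside these. Cd247, the zeta chain of the T cell receptor complex, measured 138, 174, 102 and 145 in sham arrays and 40.4, 61.0 and 74.5 in intact arrays, a difference of 1.22 ± 0.31 (limma adjusted p = 0.0475). That call was marginal, since it was lost on leaving out any 1 sham array or any of intact arrays 1 to 5 (0.0528 to 0.2), with the pairs averaged (0.472) and with the higher floor (difference 0.79, 0.228). Cd3g, the gamma chain of CD3, measured 518, 564, 82.4 and 114 in sham and 22.0, 55.4 and 84.6 in intact arrays. Its highest values were in sham arrays 1 and 2, the reverse of the kappa probe sets. Its difference of 2.27 did not pass (adjusted p = 0.0507) but did without sham array 3 (0.0192) or 4 (0.0402) or intact array 4 (0.0406) or 6 (0.0449). With the pairs averaged it was at 0.415, and over the settings tried it reached 0.808. A second Cd3g probe set gave 1.35 (0.511). Lck, a T cell kinase, and Ptprc (CD45, found on all leukocytes) differed by 0.64 and 2.57 and did not pass, Ptprc with an adjusted p of 0.26. Over the lymphocyte list, to which Cd247 does not belong, no member of 10 passed. The members did not all rise: 7 of the 10 lay above 0, with differences from -0.53 to 2.57 and a median of 0.61. Summed over the list, intensity was 1495 to 2278 in sham and 850 to 1381 in intact arrays.

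RT1-Db1, the beta chain of a class II MHC molecule, was steady in the sham arrays at 2115, 2208, 2322 and 2437. Intact arrays had 144, 400.1 and 1557 as lowest, median and highest values, so the groups did not overlap, but the spread between intact arrays was wide. The difference of 2.26 did not pass (adjusted p = 0.0722), although it did without intact array 4 (0.0448) or 6 (0.024). With the close pairs averaged it was at 0.65. Against sham arteries of day 4, RT1-Db1 was higher by 2.99 (adjusted p = 0.00436), and right gel arteries of day 1 were lower than sham (right minus sham -3.93, adjusted p = 0.00315). RT1-Db1 was named by its values in the same sham arrays, so these comparisons are a description. Cd74, the chaperone of class II molecules, was 1527 to 3212 in sham and 92.7 to 1757.5 in intact arrays (difference 1.97, adjusted p = 0.429). None of the 12 antigen presentation genes passed against intact arteries. The list was mixed, with 7 of the 12 above 0, differences from -0.38 to 2.26 and a median of 0.19.

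The other rises were of genes with no shared role. Cyp2c11, a cytochrome P450 that oxidises steroids and drugs and is best known from the male rat liver, had the largest rise among named genes. It measured 567, 539, 1804 and 1676 in sham arrays and 15.1, 63.9 and 122 as lowest, median and highest in intact arrays. The difference was 4.19 ± 0.52 (limma adjusted p = 6.62e-06), or 18.2-fold with an interval of 8.69 to 38.2. As with the kappa probe sets, sham arrays 3 and 4 were about 3 times as bright as arrays 1 and 2, yet even the lower pair was above every intact array. The probe set (J02657_s_at) is of a kind that can match several related transcripts, so other members of the P450 family may share its signal. The call held in all 26 settings.

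Cyp2c11 was low in every other group examined. Day 4 sham arteries had 24.8 to 226, the right gel arteries of day 1 had 43.0, 10.4 and 63.0, and the injured left ones 12.5, 17.2 and 14.3. The day 1 minus day 4 difference in sham arteries was 4.24 (adjusted p = 1.49e-05). The high signal was measured in the 4 sham arrays of day 1 and in no other array of these groups.

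Igfbp5, a secreted protein that binds insulin-like growth factors, was even across the sham arrays at 503, 498, 636 and 568, against 36.1, 85.1 and 175 in intact arrays. The difference was 2.81 ± 0.48 (adjusted p = 0.00058), 7.03-fold with an interval of 3.57 to 13.8. It was again low elsewhere, at 63.9 to 196 in sham arteries of day 4 (day 1 minus day 4 2.19, adjusted p = 0.00904), 39.3 to 193 in right gel and 29.3 to 89.6 in injured left arteries. Averaging the close pairs left the difference from intact past the threshold (0.0289) but not that from day 4 (0.155), and without sham arrays 3 and 4 together the first was at 0.0537. Igfbp5 was the 1 member of 33 growth factor genes and binding proteins that passed (list median 0.05). Igfbp3, another binding protein, was 599 to 877 in sham and 135 to 385 in intact arrays without overlap (difference 1.65). Its adjusted p was 0.053, with 0.04 without intact array 6 and 0.549 with the close pairs averaged.

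Pde7a, a phosphodiesterase that breaks down cyclic AMP, measured 139, 228, 193 and 106 in sham arrays, while 5 of 6 intact arrays were at the floor (highest 36.1). Its difference was 2.67 ± 0.59 (limma adjusted p = 0.0115), but not past the threshold without sham array 2 (0.0634) or 3 (0.0551) or with the pairs averaged (0.201). With so many intact arrays at the floor its size depends on it: at the higher floor the difference was 1.01 from intact (0.157) and 1.01 from day 4 (0.0533). Sham arteries of day 4 had 3.3 to 26.8, and the day 1 minus day 4 difference was 2.74 (0.00675). Unlike Cyp2c11 and Igfbp5, Pde7a was bright in the injured left arteries too, at 146, 145 and 97.1 (left minus sham -0.33, adjusted p = 0.915). Ctse, the aspartic protease cathepsin E, measured 105, 104, 188 and 190.3 in sham and 7.5 to 75.2 in intact arrays (1.83 ± 0.46, adjusted p = 0.0403). Its call was lost without any 1 sham array or without intact array 1, 2, 3 or 5 (0.0546 to 0.179), with the pairs averaged (0.449) and with the higher floor (difference 0.83, 0.0775).

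**Figure D3:**
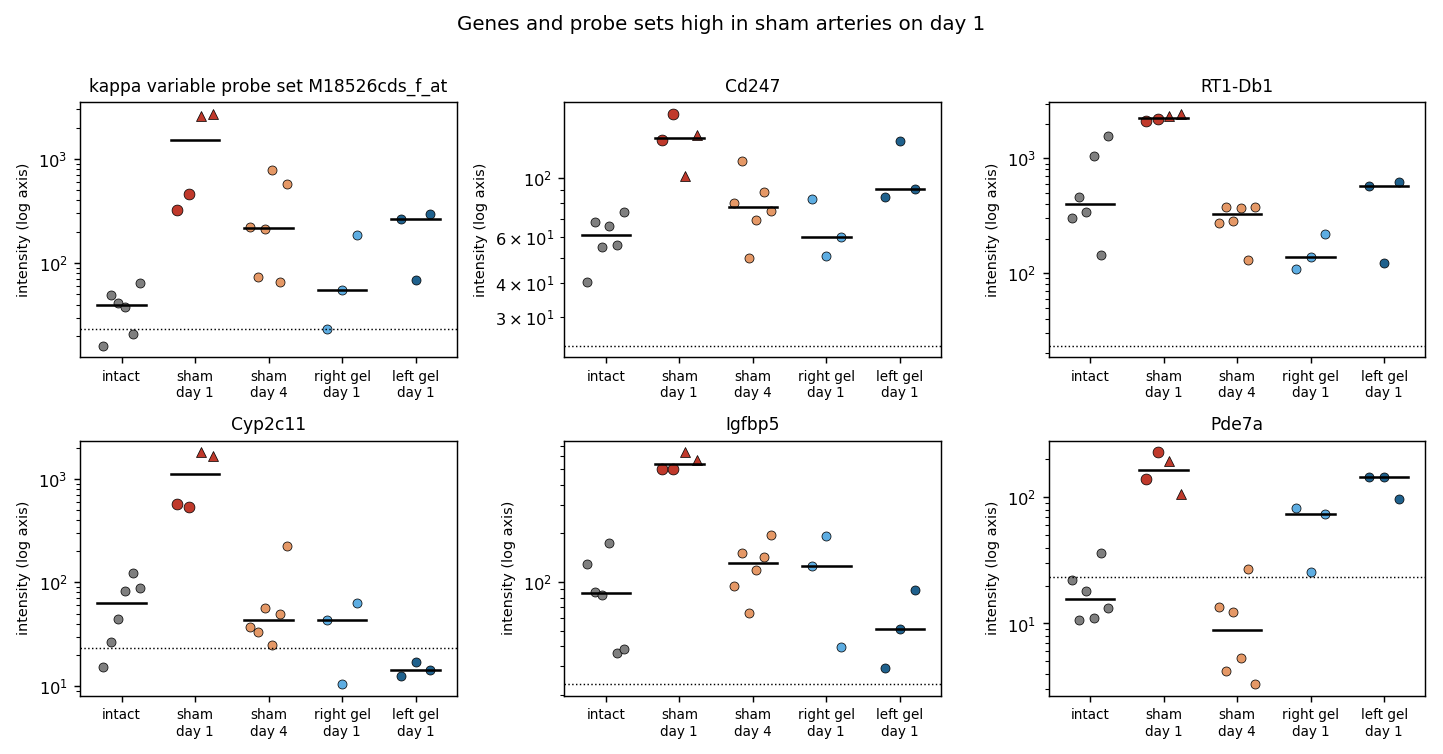
Intensities (log axis) of transcripts higher in sham day 1 than in intact arteries, and of RT1-Db1, which did not pass (adjusted p = 0.0722), with 1 point per array in sham day 1, intact, sham day 4 and the day 1 gel groups. Triangles are sham day 1 arrays 3 and 4, bars are medians, and the dotted line is the floor of 23.3. All 4 sham day 1 arrays of Cyp2c11 and Igfbp5 lie above all arrays of the other groups.

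Besides the clock genes, 8 genes fell by their brightest probe set. Rpl30 and Rpl17 encode proteins of the large ribosomal subunit. Rpl30 measured 98.2, 172, 89.3 and 71.9 in sham arrays and 438, 495 and 766 in intact arrays, a difference of -2.39 ± 0.44 (limma adjusted p = 0.00161). Rpl17 measured 116, 101, 100.1 and 83.7 against 312, 382 and 439, a difference of -1.91 ± 0.33 (adjusted p = 0.000635). Neither overlapped. Both fell against sham arteries of day 4 as well (day 1 minus day 4 -2.43, 0.00203, for Rpl30 and -1.99, 0.000634, for Rpl17). The rest of the ribosomal list did not move this way, since 35 of its 37 tested genes did not pass, 26 lay above 0, and the median was 0.08.

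The remaining 6 of these genes have unrelated roles. Chchd1, a mitochondrial ribosomal protein, measured 100.3, 93.0, 72.6 and 72.5 in sham and 145 to 281 in intact arrays (-1.37 ± 0.24, limma adjusted p = 0.000617). Map4k4, a kinase of the stress signalling cascade, measured 108, 66.2, 34.9 and 79.1 against 160 to 315 (-1.66 ± 0.31, adjusted p = 0.00161). Both were also lower than in sham arteries of day 4 (-1.41, 0.000634, and -1.51, 0.00484). On day 1 both were higher than sham in right gel arteries, by 1.63 (0.00269) and 1.96 (0.00335), and in injured left arteries, by 1.69 (0.000837) and 1.84 (0.00446). Chchd1 and Map4k4 were chosen by their low values in these same sham arrays, so the day 4 and gel comparisons are a description. Ybx1, which binds RNA and DNA, was 91.5 to 116 in sham and 157 to 265 in intact arrays (-1.05 ± 0.23, adjusted p = 0.0092). It missed the threshold without sham array 3 (0.0551), as did the Map4k4 difference between days (0.0603).

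Rbl2, a relative of the retinoblastoma protein that restrains the cell cycle, was 199 to 391.6 in sham and 877 to 1603 in intact arrays (-1.97 ± 0.45, limma adjusted p = 0.0179). Psap, the precursor of the lysosomal saposins, was 483 to 665 against 787 to 2630 (-1.38 ± 0.32, adjusted p = 0.0226). A second Psap probe set gave -3.55 ± 2.09 and did not pass (0.56), nor did the mean of the gene's probe sets (-2.47, 0.401). Cox5a, a subunit of cytochrome c oxidase, was 37.2 to 76.6 against 88.2 to 251 (-1.25 ± 0.31, adjusted p = 0.0408). These 3 calls were each lost on leaving out single arrays. The omissions were sham array 3 or 4 or intact array 1 for Rbl2 (0.0548 to 0.115), and additionally intact array 4 or 5 for Psap (0.0503 to 0.0893). For Cox5a they were sham array 1, 3 or 4 or intact array 1, 2 or 5 (0.069 to 0.265). With the close pairs averaged, Rpl30 (0.0497), Rpl17 (0.0292), Map4k4 (0.0292) and Chchd1 (0.0289) passed against intact arteries, and Rbl2, Psap, Cox5a and Ybx1 did not (0.184 to 0.421). None of these 8 genes passed without sham arrays 3 and 4 together (0.0665 to 0.416), and Cox5a did not with the higher floor (difference -0.81, 0.274). Of the mitochondrial energy genes, Cox5a was the 1 of 33 that passed, and their median was 0.02.

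**Figure D4:**
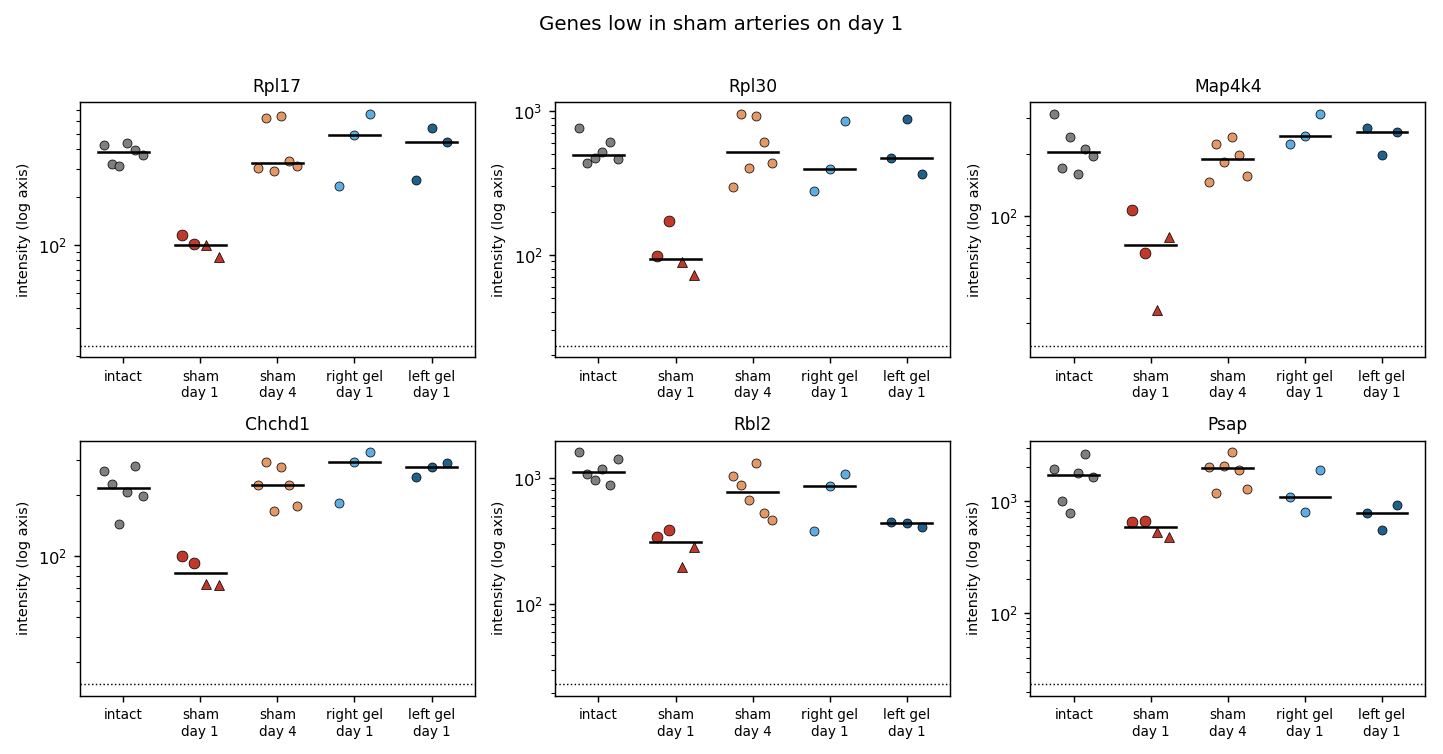
Intensities (log axis) of genes lower in sham day 1 than in intact arteries, with 1 point per array in sham day 1, intact, sham day 4 and the day 1 gel groups. Triangles are sham day 1 arrays 3 and 4, bars are medians, and the dotted line is the floor of 23.3. For each gene all sham day 1 arrays lie below all intact arrays.

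Another 6 genes passed only by a probe set that is not their brightest, and the probe sets of a gene often disagreed. Lamp1, a lysosomal membrane protein, was lower at one probe set, with 109, 109, 74.3 and 81.6 in sham and 404 to 654 in intact arrays (-2.41 ± 0.31, limma adjusted p = 6.67e-06), while its brightest probe set gave 0.47 (0.801). Rpl21, another ribosomal protein, was lower at 2 related probe sets (-1.65 and -2.59) but gave 0.58 (0.189) at its brightest. Tpp2, a large peptidase, was lower at one (-1.44, adjusted p = 0.000779) and at -0.02 in its brightest; with the higher floor its call was lost (-0.85, 0.0697). For Kctd13, Alcam and Ruvbl1 the called probe set gave -0.97, -1.74 and -1.40 and the brightest -0.93, -0.72 and -0.69. A further probe set gave -0.16 for Kctd13 (limma adjusted p = 0.985) and -0.05 for Alcam (0.984). Kctd13 lost its call without sham array 1 (0.0735) or 2 (0.0858), and Alcam without sham array 3 (0.153) or intact array 5 (0.0543). The Ruvbl1 probe set was the 1 of the 50 whose groups overlapped, and was lost without sham array 2, 3 or 4 or intact array 1, 2, 3 or 6 (0.0547 to 0.159). With the pairs averaged, Kctd13 (0.184), Alcam (0.163) and Ruvbl1 (0.314) did not pass, nor did Alcam (0.164) and Ruvbl1 (0.114) with the higher floor. Of the 23 called genes, 10 had more than 1 tested probe set, and all of a gene's probe sets were called for 2 of these 10, Bmal1 and Dbp.

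Genes of the vessel wall itself did not pass. None of 21 contractile smooth muscle genes was called, with a median of -0.03 and a summed intensity of 57744 to 62166 in sham and 56891 to 69491 in intact arrays. Calponin (Cnn1), an actin-binding protein of contractile cells, was 1813 to 2617 in sham and 2157 to 4962 in intact arrays (-0.71, adjusted p = 0.37). The 27 vascular receptor genes had a median of -0.30, the 23 ion channel genes one of -0.09 and the 11 endothelial genes one of -0.02, without a call. The potassium channel Kcnk3 did not overlap, at 144 to 212 in sham and 326 to 919 in intact arrays (-1.40, adjusted p = 0.189). Kdr, the endothelial receptor for vascular endothelial growth factor, was 99.3 to 255 against 28.7 to 100.5 (1.59, 0.193). Vegfa, that growth factor, was 95.4 to 322 against 69.0 to 125 (1.08, adjusted p = 0.083) and passed without sham array 2 (0.009). With the close pairs averaged Vegfa was at 0.472.

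The extracellular matrix list held the widest range of differences of all lists, from -5.79 to 3.44, and none of its 30 genes passed. Col1a2, a chain of type I collagen, measured 186, 17.4, 12.1 and 12.8 in sham arrays and 141, 3615 and 5339 as lowest, median and highest in intact arrays. Its adjusted p was 0.0783, with 0.0352 without intact array 6, the low one, and 0.65 with the close pairs averaged. The probe set was as uneven in the right gel arteries, at 14089, 4095 and 107. Biglycan (Bgn), a matrix proteoglycan, ranged from 0.1 to 6343 among the intact arrays alone. Across the 40 arrays, 55 probe sets with an upper quartile above 2000 read under 100 on some array.

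Genes of neighbouring tissue, which can be carried along in dissection, were uneven among the intact arrays. Of 29 skeletal muscle genes 5 lay above 0 and the median was -0.55. The muscle troponin Tnnc2 measured 69.9 to 119 in sham arrays and 87.0, 223 and 5370 as lowest, median and highest in intact arrays. Summed over the list, intact arrays 3 and 6 had 39595 and 20917, while the other 4 intact arrays (6642 to 7606) were close to the sham arrays (7249 to 8876). Nerve genes had a median of -0.48 with 4 of 27 above 0, and intact array 3 again had the highest sum (22430, against 8834 to 11323 in the other intact and 7811 to 9702 in the sham arrays). Chrna3, a nicotinic receptor subunit of autonomic neurons, was 9.9 to 23.9 in sham and 35.8 to 884 in intact arrays (-2.45, adjusted p = 0.0541). It passed without intact array 2 (0.0155) or 4 (0.0351), and was at 0.568 with the close pairs averaged. With 3 of 4 sham arrays at the floor its size depends on it, and at the higher floor it was -0.97 (0.466). No gene of either list passed, nor any of 20 adipocyte genes (median -0.02), 10 thyroid, parathyroid and salivary genes (-0.13) or 7 blood cell and platelet genes (0.05).

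Lists of neutrophil, macrophage, inflammation and stress genes gave no call either. Neutrophil genes (7 tested) had a median of 0.19 and summed intensities of 433 to 729 in sham and 268 to 630 in intact arrays. The neutrophil calgranulin S100a8 differed by 1.28 (adjusted p = 0.665). Macrophage genes (9 tested) had a median of 0.60 and summed intensities of 7134 to 8074 and 3530 to 7911. In that list Lyz2, the lysozyme of macrophages, was 1815 to 2927 in sham and 529.6 to 1634 in intact arrays without overlap (1.46, adjusted p = 0.39). Medians for chemokines and cytokines (21), acute phase and complement genes (16) and interferon response genes (10) were 0.05, -0.05 and 0.29.

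Immediate early genes, which respond to stimuli without new protein synthesis, had a median of 0.29 over 22 genes. Before adjustment 5 were higher and 1 lower, against 3.68% and 6% of all genes (9.67% in all). Other lists had such counts too. Of 10 lymphocyte genes 3 were higher and 1 lower, and of 27 nerve genes 8 were lower and none higher. Dusp6, a phosphatase that dampens ERK signalling, was 1040 to 1381 in sham and 372 to 702 in intact arrays without overlap (1.11, limma adjusted p = 0.226). Glucocorticoid response genes (12) had a median of 0.17 and heat shock and oxidative stress genes (23) one of 0.08. Cell cycle genes (24) had a median of 0.21. The DNA topoisomerase Top2a stood out among them at 551 to 705 in sham and 98.0 to 273 in intact arrays (2.05, adjusted p = 0.0775), but its other probe set gave -0.51. All 13 sterol synthesis genes lay below 0, with a median of -0.42 and no call. For Sqle, an enzyme of cholesterol synthesis, the sham arrays measured 424 to 617 and the intact arrays 586 to 1626 (-0.77, 0.241), and the list's median difference between sham days 1 and 4 was 0.22. The 24 matrix protease and fibrinolysis genes had a median of 0.07.

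**Figure D5:**
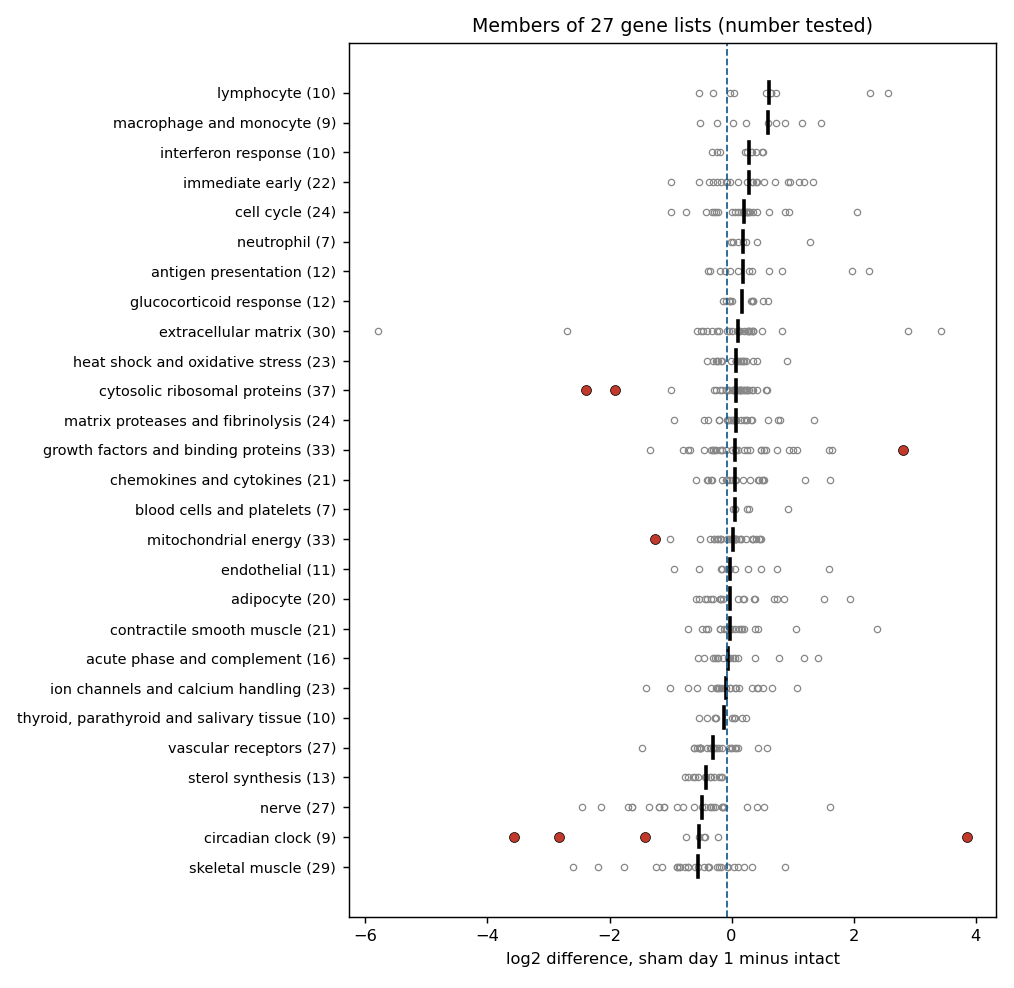
Log2 differences (sham day 1 minus intact, x axis) of the tested genes of each list (y axis). Each point is 1 gene, red where it passed and open grey where not; the black bar is the list's median and the dashed blue line the median over all genes (-0.08). Red points stand in the clock, growth factor, mitochondrial and ribosomal lists.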

How the data were processed

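Arrays measured RNA of carotid arteries, each from the pooled vessels of 3 rats. The deposited intensity values were on a linear scale, with a trimmed mean (2% off each end) of 500.3 to 500.8 on every array. The labels do not state the summary algorithm. The file held 8799 probe sets, of which 59 controls were left out. Values below the 20th percentile (23.3) were set to it and log2 was taken. The 33.3% of probe sets with the lowest mean (2913) were left out. One limma model (version 3.58.1, R 4.3.3) with 11 group means was fitted to all 40 arrays. Benjamini-Hochberg adjustment was made over all 5827 probe sets, with a threshold of 0.05. The fit was also run on simulated data with independent noise on each array, without values tied at the floor or close pairs of arrays. That run therefore does not bear on such ties or on the close sham pairs. Of the probe sets, 7006 had 1 gene symbol, 308 several and 1426 none. A gene's value came from its probe set with the highest mean (937 genes had more than 1). Named genes were all those past the threshold and, from each list, up to 4 with the smallest p, plus clock and near-threshold genes chosen after their values were seen. The members and the 27 lists were chosen with earlier results of these data known, so lists are described by counts and medians without a test. The number of arrays limits the precision. Array quality was compared by exact permutation. Alternatives covered scaling, floor, filter, model, probe set choice and left-out arrays.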

Additional observations from a re-analysis of the deposited data

Results flagged for a closer look

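By the gap between a group's extreme array and its neighbour, relative to the group's range, 16 of 192 combinations of a feature and a group stood out; chance gives about 1 in 20 where values are not tied. For 7 of the 16, every other array of the group was tied at the floor of 23.3, so that any value above it stood out and that rate does not apply: Bmal1 at its second probe set, M18528cds_f_at, M28670_at, rc_AI014135_g_at, Pde7a, Chrna3 and the sham arrays of Col1a2. Among the clock genes these were Bmal1 at its second probe set (intact array 3 high, 37.8), Dbp (sham array 2 low, 247), Nr1d2 (intact array 5 low, 490.5) and Bhlhe41 (intact array 2 low, 702). Among the kappa and unnamed probe sets they were M12981cds_f_at (intact array 1 low, 19.8), M18528cds_f_at (intact array 6 high, 84.9), M28670_at (intact array 3 high, 28.5) and rc_AI014135_g_at (sham array 1 high, 26.5). The others were Ruvbl1 (intact array 5 low, 59.4), Pde7a (intact array 5 high, 36.1), Col1a2 (sham array 1 high, 186, and intact array 6 low, 141), Kcnk3 (sham array 4 low, 144), Chrna3 (sham array 3 high, 23.9), Gap43, a growth cone protein of axons (sham array 3 high, 240.1), and Plau, the urokinase plasminogen activator (sham array 1 low, 243).

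For 15 of the 17 genes called against intact arteries, the limma test of sham day 1 against day 4 passed (4.44% over all genes). Both comparisons share the 4 sham day 1 arrays whose values chose these genes, so this count is a description and supports nothing. The day 1 minus day 4 differences were 2.71 for Bmal1, -2.84 for Dbp, -1.98 for Nr1d2 and -1.94 for Nr1d1. Among the other rises they were 4.24 for Cyp2c11, 2.19 for Igfbp5, 2.74 for Pde7a and 1.66 for Ctse. Among the other falls they were -2.43 for Rpl30, -1.99 for Rpl17, -1.63 for Psap, -1.51 for Map4k4, -1.41 for Chchd1, -1.37 for Cox5a and -1.19 for Ybx1. With the close sham pairs averaged, the difference between days passed for Bmal1, Cyp2c11, Rpl17 and Chchd1. Single omissions ended it for Cox5a without sham day 1 array 3 (adjusted p = 0.0827, limma) and for Ctse without sham day 1 array 2, 3 or 4 or day 4 array 1, 4 or 5 (0.0535 to 0.125).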

How the results depend on the processing

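Against 50 probe sets past the threshold for sham day 1 against intact, the count was 106 with only the groups compared in the fit, 128 with only sham and intact arrays, 87 without the 4 tPA arrays that stand apart, 320 with array weights and 25 with the close sham pairs averaged. It was 17 without sham arrays 3 and 4 together, an alternative chosen after seeing the data, and 36 to 52 on leaving out 1 array at a time; 29 of the 50 were lost in no single omission. The share of calls that were higher was 40% as reported, 54.5% under quantile normalisation, 57.1% under median scaling, 50% with only the groups compared, 55.5% with only sham and intact arrays, 56.1% with the replicate block, 57.4% without sham arrays 1 and 2, 32.5% with array weights and 23.5% without sham arrays 3 and 4. For sham day 1 against day 4 the count of 282 became 116 (quantile), 535 (only sham and intact arrays), 436 (without the tPA arrays), 975 (array weights), 9 (pairs averaged), 42 (without sham day 1 arrays 3 and 4) and 92 (without arrays 1 and 2). With single arrays left out it was 56 to 320, with 141, 91 and 56 without sham day 1 array 1, 2 or 3 and 185, 167 and 120 without day 4 array 1, 2 or 5. Median scaling moved its share of higher calls from 35.1% to 79.7%. The replicate numbers did not pair the samples (correlations of deviations -0.03, 0.12, 0.05 and 0.01); with the replicate block 41 probe sets passed against intact, 27 of them among the 50, and 45 against day 4. No result changed direction while past the threshold in these settings. The cause of these changes was not tested.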

Other observations

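Of the 16 called probe sets that carry no gene name, 6 were higher and 10 lower in sham day 1 than in intact arteries. M18528cds_f_at measured 598, 778, 3341 and 3030 in sham arrays 1 to 4, with 5 of 6 intact arrays at the floor and the highest intact array at 84.9 (limma adjusted p = 0.000398). The size of its difference is set by the floor and ranged from 4.20 to 6.78 log2 units over the settings tried, and without sham arrays 3 and 4 together it did not pass (0.114). Its sham arrays followed the pattern of the kappa probe sets, brighter in arrays 3 and 4. In the other direction, rc_AI014135_g_at measured 26.5, 15.6, 6.6 and 11.4 in sham arrays, 3 of 4 at the floor, and 346, 809 and 2685 as lowest, median and highest in intact arrays (adjusted p = 0.000156). The size of this difference is also set by the floor and ranged from -5.41 to -3.43 over the settings tried.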
